A study of Homo sapiens with 8 samples.

Results

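Fibroblast growth factors (FGFs) are secreted proteins that bind receptor tyrosine kinases, the FGF receptors, together with heparan sulfate chains of the cell surface. The bound receptors pass their signal through adaptor proteins to the RAS, RAF, MEK and ERK kinases and to PI3K, and Sprouty, SPRED and DUSP proteins dampen it. In mesenchymal and basal-like breast cancer cells, FGF2 with FGFR1 is a known growth and survival axis, and splice forms of FGFR2 mark epithelial against mesenchymal cells. The genes described here are 8 members of this system, the ligands FGF1, FGF2, FGF5 and FGF7 and the receptors FGFR1, FGFR2, FGFR3 and FGFR4. They were taken by symbol from a table of 21077 genes, in which 7 of the 8 had a row and 6 were above 0. FGF7, an epithelial growth factor made by mesenchymal cells, was not analysed here.

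RNA-Seq was performed on Hs578T, an established estrogen receptor-negative breast cancer cell line, after 48 hours with glucose at 5 mM (low glucose) or at 25 mM (high glucose, a model of hyperglycemia). There were 4 libraries per group, 8 in all, with no other treatment or genetic change in the labels, and the methods of the study place high-glucose experiments in serum-free medium after conditioning in low glucose. Where the replicates came from is not given, so p values measure only the spread between these samples, which may be technical. All levels are normalized signal, taken as CPM (counts relative to library size) with TMM scaling, and are given as mean ± SD with n = 4 per group. Differences in log2 units are 25 mM minus 5 mM for log2(CPM + 1), so that changes of scarce genes are understated, and adjusted p values are from limma over all 15570 genes tested.

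The libraries held an estimated 10244900 to 11956677 counts, and 1 count was worth 0.0867 to 0.118 CPM. Most of the transcriptome differed between the groups, with 72.9% of tested genes called at a false discovery rate (FDR) under 0.05. Of the tested genes, 35.7% were higher and 37.2% lower in high glucose. The labels name no osmolarity control and the samples are numbered in consecutive blocks by group. Glucose, osmolarity and handling by group therefore cannot be told apart. The 4 libraries of one group did not overlap those of the other for 66.7% of genes. The median size of the change over all genes was 0.48 on the log2 scale. The labelled line had its mesenchymal markers, with a summed signal of 5 such genes of 53434 to 57525 CPM at 5 mM and 31851 to 33083 CPM at 25 mM. On the log2 scale VIM (-1.17), FN1 (-0.78), ZEB1 (-0.71) and SPARC (-0.15) were lower, while CDH11 was higher (0.53). The falls of FN1 and SPARC depended on how the libraries were scaled. Of 6 epithelial markers, EPCAM was at 0 in every library and the sum was 3.14 to 3.60 CPM at 5 mM and 1.90 to 2.67 CPM at 25 mM. Of 4 endothelial markers CDH5 was at 0 and the sum was 2.12 to 2.77 and 7.12 to 8.58 CPM, and the 3 leukocyte markers with a row were almost entirely CD68 (184 and 94.1 CPM). Of the 4 luminal markers, ESR1 and PGR each had a group mean under 0.2 CPM in both groups and GATA3 carried most of a sum of 23.2 to 27.2 and 22.1 to 25.4 CPM. The 6 fibroblast markers summed to 3015 to 3262 and 3012 to 3502 CPM. The part of these marker shifts in the results that follow was not tested. In bulk RNA, fewer cells that express a gene and less RNA per cell cannot be told apart.

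Among the 8 members, the 2 largest changes were in ligands and went in opposite directions. FGF2 fell 3.54-fold while FGF5 rose 4.46-fold, FGF1 rose slightly, and the receptors moved by far smaller amounts. Of the 6 members that passed the filter on low values, 3 were called higher (FGF1, FGF5 and FGFR3), 2 lower (FGF2 and FGFR1) and 1 was not called (FGFR4). The groups did not overlap for 5 of the 6. With 72.9% of all genes called and 66.7% without overlap, 5 of 6 is near the background and is no result about these genes. The sizes of the changes differed widely. FGF2 had a larger change than 97.6% of all tested genes and FGF5 a larger change than 98.8%. These ranks are on the log2(CPM + 1) scale, which understates changes of scarce genes, so they depend on abundance.

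FGF2 (basic FGF, ENSG00000138685.15) is a ligand without a classical signal peptide that binds several FGF receptors and is stored on heparan sulfate. It lies on the plus strand of chromosome 4 (hg38, chr4:122826682-122898236). Its level in the low-glucose libraries was 378, 359, 367 and 367 CPM. In the high-glucose libraries it was 105, 97.1, 113 and 101 CPM. Every high-glucose library was far below every low-glucose library, and the spread within each group was small against the gap. The mean went from 368 ± 7.65 to 104 ± 6.51 CPM, a 3.54-fold lower level (-1.82 log2 units, SE 0.04, adjusted p = 2.5e-14 by limma). The fall held under all 18 alternative settings, between -1.85 and -1.57.

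FGF5 (ENSG00000138675.16) is a secreted ligand best known as the signal that ends the growth phase of hair follicles, and it was first described as an oncogene. It also lies on the plus strand of chromosome 4, at some distance from FGF2 (hg38, chr4:80266588-80291017). Its level in low glucose was 17.4, 20.4, 17.6 and 18.6 CPM. In high glucose it was 82.4, 78.2, 81.7 and 87.0 CPM. No library of one group came near the other group. The mean rose from 18.5 ± 1.37 to 82.3 ± 3.63 CPM, a 4.46-fold higher level (2.10 log2 units, SE 0.06, adjusted p = 2.3e-13), and lay between 1.90 and 2.33 on the log2 scale under the 18 alternatives. The values rested on 157 to 966 estimated counts per library, all of them whole.

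The DNA just upstream of the annotated starts of this oppositely moving pair is shown because these 2 ligands had the largest changes among the members. The sequences are from RefSeq (GRCh38.p14), 5′ to 3′ on the plus strand, where capitals mark matches to the GC box GGGCGG on either strand.
FGF2 upstream, chr4:122826581-122826681: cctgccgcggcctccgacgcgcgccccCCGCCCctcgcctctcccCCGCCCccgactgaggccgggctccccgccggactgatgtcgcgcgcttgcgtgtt
FGF5 upstream, chr4:80266338-80266587: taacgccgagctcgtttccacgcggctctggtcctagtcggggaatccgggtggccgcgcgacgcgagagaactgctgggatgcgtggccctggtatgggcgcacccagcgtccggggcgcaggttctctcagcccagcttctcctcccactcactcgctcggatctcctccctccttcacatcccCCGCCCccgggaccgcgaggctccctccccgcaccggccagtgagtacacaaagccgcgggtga

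The FGF2 stretch of 101 bases was 80.2% G and C and held 2 GC boxes. This motif was present in the first 101 bases of 17% of 27305 promoter sequences. In other genes those bases need not lie just before the annotated start, so 17% is not a matched background. The FGF5 stretch of 250 bases was 68.8% G and C and held 1 GC box, against 42.3% of promoter sequences over their first 250 bases. Neither stretch held a CCAAT box, a TATA box (letters TATAAA), a cyclic AMP response element (TGACGTCA), an E-box (CACGTG), an AP-1 site (TGANTCA) or a CHOP and ATF4 composite site (TGATGNAA), with both strands searched. These matches describe the letters of the windows only.

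FGF1 (acidic FGF, ENSG00000113578.18), the ligand that binds every receptor form, was the least abundant of the measured ligands among the members. Its level was 8.97, 9.56, 9.21 and 8.25 CPM at 5 mM and 10.2, 11.1, 12.8 and 12.3 CPM at 25 mM. The lowest high-glucose library was above the highest low-glucose library, though by a small margin. The mean rose from 9.0 ± 0.551 to 11.6 ± 1.16 CPM (0.33 log2 units, SE 0.10, adjusted p = 0.0089). This change was larger than that of 35.4% of tested genes, so it was below the typical size in this experiment.

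**Figure D1:**
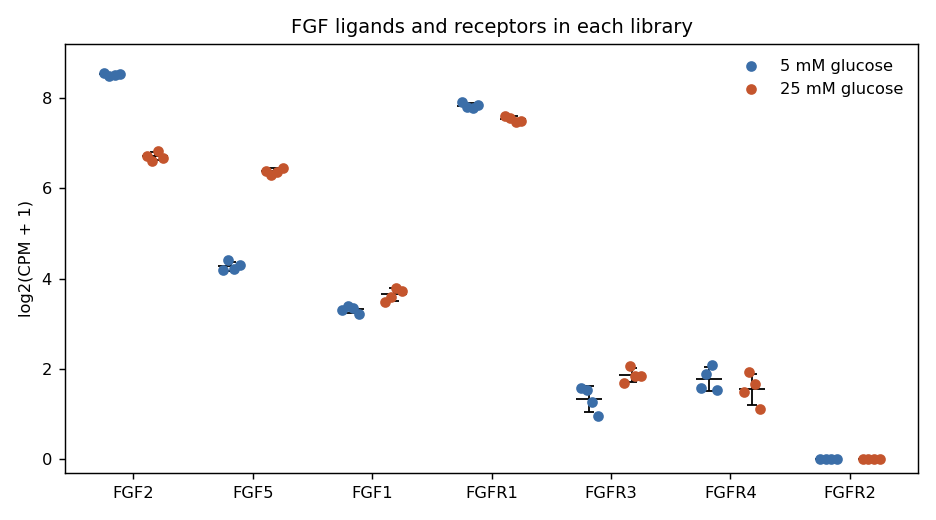
Level of each FGF ligand and receptor as log2(CPM + 1) in the 4 low-glucose (5 mM, blue) and 4 high-glucose (25 mM, orange) libraries, with 1 point per library and black bars for mean ± SD of the log2 values. FGF2 sits lower and FGF5 higher in high glucose by gaps many times the spread, FGFR1 differs little, the FGFR4 groups overlap and FGFR2 lies at 0 in all 8 libraries.

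The balance of the 2 ligands was measured within each library as the ratio of FGF2 to FGF5 CPM. This ratio does not depend on how the libraries were scaled to each other, but it does not give the direction of either gene. The ratio was 21.7, 17.6, 20.9 and 19.7 in low glucose and 1.27, 1.24, 1.38 and 1.17 in high glucose. The mean ratio was 1.26 ± 0.0876 in high glucose, against 17.6 to 21.7 in low glucose, and the groups were widely apart. Divided by transcript length, FGF2 made up 90.4% ± 0.657 of the summed CPM per kilobase of FGF1, FGF2 and FGF5 in low glucose and 45.6% ± 1.58 in high glucose. FGF5 went from 5.69% ± 0.486 to 45.3% ± 1.61 and FGF1 from 3.93% ± 0.263 to 9.05% ± 0.697 of the same sum. FGF2 was thus the predominant measured ligand in low glucose, and in high glucose the FGF2 and FGF5 levels per kilobase overlapped. Lengths over all exons of each gene in place of the canonical transcript gave FGF2 shares of 91.7% and 48.6%. Since shares sum to a whole, they carry the same data as the levels and are not separate evidence.

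**Figure D2:**
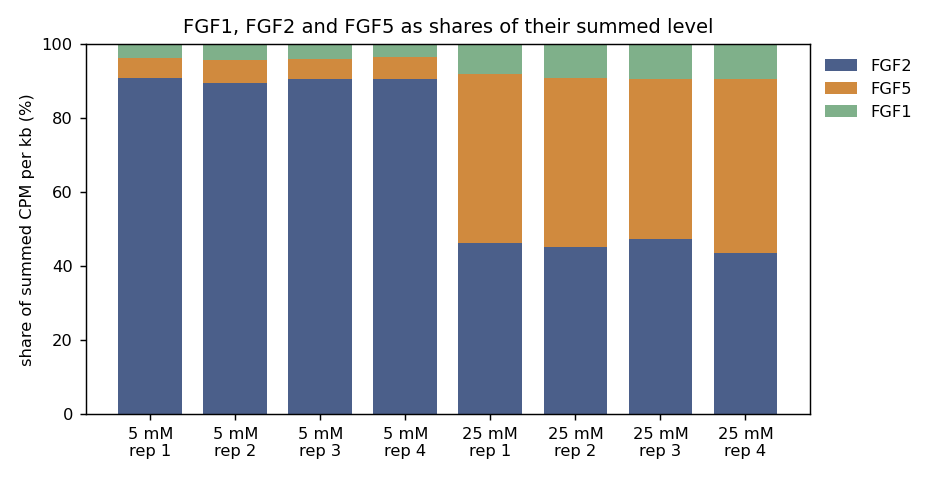
Share of FGF2, FGF5 and FGF1 in their summed CPM per kilobase of canonical transcript, in percent (vertical axis, from 0 to 100), for each of the 4 low-glucose and 4 high-glucose libraries. FGF2 holds 89.4% to 90.9% in each low-glucose library, against 43.7% to 47.4% at 25 mM, and most of the difference is taken up by FGF5.

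The last 5660 bases of FGF2 (hg38, chr4:122892577-122898236) overlap NUDT6 on the opposite strand, a Nudix hydrolase gene whose transcript is an antisense partner of FGF2 RNA. Whether the counting of these libraries used strand is not stated, so reads from the overlap cannot be assigned with certainty. Estimated counts were fractional for FGF2 and for NUDT6 in all 8 libraries. NUDT6 was at 0.433, 1.21, 2.19 and 0.772 CPM in low glucose and 2.86, 4.00, 5.16 and 4.15 CPM at 25 mM. All high-glucose libraries were above all low-glucose libraries, and the mean rose from 1.15 ± 0.763 to 4.04 ± 0.939 CPM (1.27 log2 units, SE 0.22, adjusted p = 8.7e-05). The FGF2 mean fell by 264 CPM against a difference of 2.89 CPM for NUDT6, and the summed signal of both genes was 369 ± 7.30 and 108 ± 7.01 CPM. The fall of the sum was nearly as large as that of FGF2 alone. How reads of the overlap were split was not tested.

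FGF7 itself was not analysed here, but 4 of its pseudogene copies had a row. FGF7P6 had 4.10 ± 0.653 CPM at 5 mM and 3.0 ± 0.671 CPM at 25 mM with overlapping groups, and its adjusted p of 0.047 was lost under 10 of the 18 alternatives. FGF7P3 had 0.344 ± 0.284 and 0.970 ± 0.376 CPM (adjusted p = 0.018, lost under 3 alternatives), also with overlapping groups. FGF7P5 had 0.518 ± 0.320 and 0.219 ± 0.218 CPM (adjusted p = 0.13) and FGF7P4 was at 0. Near-identical copies share reads, so these values are uncertain.

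FGFR1 (ENSG00000077782.20, hg38, chr8:38411143-38468635) was by far the main receptor. It encodes the receptor typical of mesenchymal cells, for which FGF2 is a strong ligand. Its level was 239, 223, 219 and 228 CPM at 5 mM and 195, 189, 176 and 181 CPM at 25 mM. The groups did not overlap, and the gap between them was only slightly wider than the range within a group. The mean fell from 227 ± 8.37 to 185 ± 8.62 CPM (-0.30 log2 units, SE 0.04, adjusted p = 1.1e-05), but rescaling all libraries to the same total left -0.05 with an adjusted p of 0.23. That rescaling raised the log2 difference of single genes by a median of 0.23, and as deposited the change of FGFR1 was larger than that of only 31.8% of tested genes. FGFR1 made up 97.2% ± 0.651 of the summed CPM per kilobase of the 4 receptors in low glucose and 96.3% ± 0.816 in high glucose.

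FGFR3 (ENSG00000068078.18, hg38, chr4:1793293-1808867), a receptor of epithelial and cartilage cells, was near the limit of measurement. It was at 1.99, 1.91, 1.41 and 0.943 CPM at 5 mM and 2.25, 3.21, 2.58 and 2.61 CPM at 25 mM. These values correspond to 8 to 32 counts per library, and the groups did not overlap. The mean rose from 1.56 ± 0.488 to 2.66 ± 0.397 CPM (0.53 log2 units, SE 0.16, adjusted p = 0.009), and after quantile normalization the difference was 0.34 with an adjusted p of 0.074.

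FGFR4 (ENSG00000160867.15, hg38, chr5:177086915-177098144), known from liver as the receptor of FGF19, had 1.99, 2.70, 3.25 and 1.89 CPM at 5 mM and 1.82, 2.81, 2.20 and 1.17 CPM at 25 mM. The groups overlapped, and no difference was detectable at 13 to 30 counts per library. The means were 2.46 ± 0.640 and 2.0 ± 0.685 CPM (-0.22 log2 units, 95% interval -0.61 to 0.18, adjusted p = 0.31). The interval leaves room for a change in either direction. FGFR2 (ENSG00000066468.22, hg38, chr10:121478330-121598458), whose splice forms serve epithelial and mesenchymal cells, was listed at 0 in all 8 libraries. A count of 0 allows up to 3 counts, which is 0.260 to 0.354 CPM in a library. This limit covers counting error only.

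**Figure D3:**
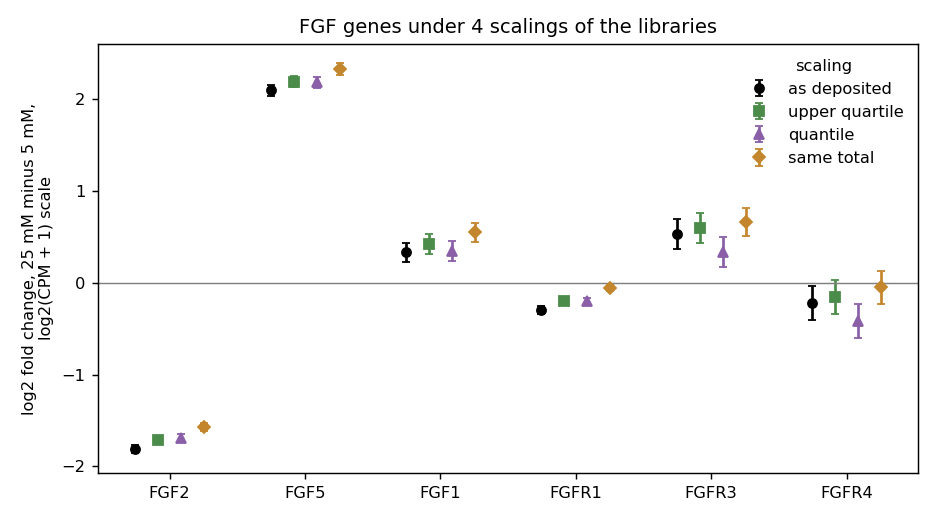
High minus low glucose difference on the log2(CPM + 1) scale, with SE bars, for the 6 tested FGF genes under the scaling as deposited and under upper quartile, quantile and same-total scaling (n = 4 per group). FGF2 stays between -1.82 and -1.57 and FGF5 between 2.10 and 2.33 in every scaling, whereas FGFR1 moves from -0.30 to -0.05.

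Compared per kilobase of canonical transcript, the order in low glucose was FGF2 (55.3 ± 1.15), FGFR1 (39.9 ± 1.47), FGF5 (3.48 ± 0.257), FGF1 (2.40 ± 0.147), FGFR4 (0.794 ± 0.207), FGFR3 (0.364 ± 0.113) and FGFR2 at 0, with no overlap between neighbours. In high glucose FGFR1 (32.5 ± 1.51) came before FGF2 (15.6 ± 0.979), FGF5 (15.5 ± 0.683) and FGF1 (3.10 ± 0.311). FGF2 and FGF5 did not differ beyond their spread there, nor did FGFR4 (0.646 ± 0.221) and FGFR3 (0.619 ± 0.0924). The place of FGFR1 depends on the length used, since its exons together are far longer than the canonical transcript. Over all exons it stood at 13.2 and 10.8 CPM per kilobase, below FGF2 (54.1 and 15.3) in both groups and, in high glucose, below FGF5 (13.8).

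The libraries fell apart by group over most genes, so the genes most like FGF2 and FGFR1 were found by distance of the centred log2 profile over the 8 libraries and not by correlation. This distance still includes the difference between the groups, so it mainly finds genes with a change of similar size. Among 10918 genes, LITAF, a membrane protein of late endosomes, ranked 2 in nearness to FGF2 (root mean square difference 0.0574 on the log2 scale) and PPP1R15A, a stress-induced phosphatase subunit, ranked 3 (0.0602), with log2 fold changes of -1.90 and -1.76. FGFR1 was closest to CTSB, a lysosomal protease (0.0267), CCAR2, an inhibitor of a nuclear deacetylase (0.0290), and DAP, a negative regulator of autophagy (0.0323).

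Outside the members, 97 tested genes of the FGF system were assigned to lists by role. Of these, 50 were called higher and 33 lower and 14 were not called, which is 85.6% against 72.9% of all genes. Their median log2 fold change was 0.21 against a median of all genes near 0. The lists were chosen with earlier results of these data known, so these differences from all genes are no result about the FGF system. Of the 97, 6 passed the filter on low values through the libraries of 1 group, which favours a call (FGF10, FGF11, FGF21, FGFBP3, FOS and HS3ST1). With every library rescaled to the same total, 58 were higher and 25 lower. The same rescaling moved the share of higher among all called genes from 48.9% to 62.8%.

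Other secreted ligands were scarce. Of 14 listed, 6 had a row and 3 could be tested, with 1 higher and 2 lower. FGF10, a mesenchymal ligand of FGFR2 that drives branching of epithelia, was at 1.88, 2.14, 2.82 and 2.83 CPM at 5 mM and 0.173, 0.10, 0.191 and 0.0901 CPM at 25 mM, that is 86 counts over the low-glucose libraries and 6 over the high-glucose libraries (-1.58 log2 units, SE 0.15, adjusted p = 1.2e-07). FGF21, a metabolic hormone, was at 0.867 to 1.88 CPM in low glucose (49 counts) and at 0 in all 4 high-glucose libraries. A limit of 3 counts for the high-glucose group as a whole is 19.7-fold below the low-glucose mean. This figure allows no error on that mean, so it is not a lower bound. FGF18, a ligand of FGFR3 in cartilage, was at 1.18 to 1.99 CPM at 5 mM and 2.20 to 3.51 CPM at 25 mM (0.60 log2 units, adjusted p = 0.0033). All 3 ligands were scarce beside FGF2 and FGF5, and FGF10 and FGF21 passed the filter through the low-glucose libraries alone. Of the FGF homologs that stay in the cell and bind sodium channels, FGF14 rose from 0.732 ± 0.119 to 3.17 ± 0.305 CPM (1.27 log2 units, adjusted p = 5.6e-07) and FGF11 was not called (0.207 and 0.604 CPM).

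Among 9 tested coreceptors and binding proteins, 3 rose, 4 fell and 2 were not called. FLRT2, a membrane protein that binds FGF receptors and UNC5 receptors, rose from 75.4 ± 1.01 to 136 ± 3.81 CPM (0.84 log2 units). ANOS1, a matrix protein that modulates FGFR1 signaling, rose from 1.10 ± 0.436 to 4.29 ± 0.634 CPM (1.35). CDH2, the cadherin N-cadherin that stabilizes FGFR1 at the surface, fell from 585 ± 20.1 to 421 ± 18.6 CPM (-0.47), and FGFRL1, a receptor without a kinase domain that can act as a decoy, fell from 48.8 ± 4.30 to 33.1 ± 0.808 CPM (-0.54). None of these 4 calls changed with the settings tried, but after rescaling to the same total CDH2 differed by -0.23 and FGFRL1 by -0.30. The klotho coreceptors KL and KLB, needed by the hormone-like FGFs, were below the filter.

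Heparan sulfate is built on carrier proteins and then modified by enzymes. Of the 10 tested carriers, 5 rose, 4 fell and 1 was not called. The syndecan SDC3 rose from 52.6 ± 2.22 to 161 ± 10.2 CPM (1.60 log2 units) while SDC4 fell from 147 ± 3.33 to 76.4 ± 6.98 CPM (-0.94). The glypican GPC4 rose from 10.6 ± 0.705 to 23.5 ± 0.409 CPM (1.08) while GPC6 fell from 40.7 ± 3.8 to 18.3 ± 1.39 CPM (-1.11). The enzymes moved more in one direction, with 11 of 14 higher, 3 lower and a median of 0.46, against 35.7% higher and 37.2% lower of all genes. Of the 3 lower, NDST2 lost its call under 8 of the 18 alternatives. The direction of this list as a set was not tested. EXTL2 and EXTL3, glycosyltransferases that act near the start of the chain, rose by 1.24 and 0.85, and NDST1, which adds the N-sulfates to which FGFs bind, rose from 106 ± 2.04 to 201 ± 10.8 CPM (0.92). EXT1, part of the chain-lengthening polymerase, fell from 1131 ± 9.91 to 676 ± 22.0 CPM (-0.74).

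Of 26 adaptors and cascade genes, 15 rose, 7 fell and 4 were not called. PTPN11 (SHP2), the phosphatase that links the adaptor FRS2 to RAS, rose from 162 ± 4.86 to 296 ± 16.7 CPM (0.86 log2 units) and the adaptor CRK from 107 ± 1.84 to 192 ± 3.04 CPM (0.84). ARAF, a RAF kinase, fell from 61.8 ± 2.97 to 27.1 ± 1.31 CPM (-1.16) and MAPK3 (ERK1) from 60.5 ± 5.34 to 28.5 ± 1.28 CPM (-1.05). Of 11 genes of receptor turnover, 2 rose and 8 fell, though only 4 were still lower, and 3 higher, after rescaling to the same total. SH3KBP1, an endocytic adaptor, fell from 317 ± 4.28 to 151 ± 4.66 CPM (-1.07) and the ubiquitin ligase CBLB from 427 ± 6.0 to 253 ± 7.88 CPM (-0.75). NEDD4, a ubiquitin ligase for FGFR1, rose from 54.4 ± 1.32 to 96.6 ± 5.07 CPM (0.82), and the phosphatase PTPN1 rose from 48.9 ± 2.93 to 93.8 ± 2.93 CPM (0.93).

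Feedback inhibitors, which ERK activity is known to induce, had the highest median of the lists with at least 10 tested genes (0.68 over 10 genes). Of these, 6 rose, 1 fell and 3 were not called. The share called was 70% against 72.9% of all genes, so the count is no result about this list. DUSP6, a phosphatase of ERK, was at 20.3, 20.9, 25.2 and 21.8 CPM at 5 mM and 60.3, 60.1, 62.5 and 63.7 CPM at 25 mM (1.44 log2 units, SE 0.07, adjusted p = 3.4e-11). SPRY4, a Sprouty inhibitor of RAS activation, was at 32.7, 27.0, 29.1 and 23.0 CPM at 5 mM and 70.4, 72.1, 68.7 and 77.8 CPM at 25 mM (1.35, SE 0.08, adjusted p = 9.3e-10). In neither gene did the groups come close. SPRED1 and SPRED2, which block the activation of RAF, rose by 1.28 and 1.21. SPRY2 was the 1 called lower, with a difference of -0.15 that became 0.09 after rescaling to the same total.

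ERK response genes did not move as a block, as 6 of 12 rose, 4 fell and 2 were not called. MYC, a transcription factor of growth, was at 292, 312, 297 and 288 CPM at 5 mM and 50.1, 54.2, 48.7 and 53.0 CPM at 25 mM (-2.51 log2 units, SE 0.04, adjusted p = 1.4e-15). FOSL1, an AP-1 subunit, rose from 89.1 ± 0.955 to 206 ± 4.32 CPM (1.20), CCND1 (cyclin D1) from 373 ± 8.61 to 687 ± 11.2 CPM (0.88) and IER3, an early response gene, from 432 ± 15.9 to 918 ± 41.0 CPM (1.09). The ETS factors ETV1, ETV4 and ETV5, all on this list, were named after their values were seen. ETV4 fell from 18.9 ± 0.998 to 13.7 ± 1.37 CPM (-0.44) and ETV5 from 224 ± 3.61 to 148 ± 3.73 CPM (-0.59), while ETV1 rose from 78.5 ± 2.43 to 97.2 ± 5.48 CPM (0.30). EGR1 and FOS, immediate early factors also named after their values were seen, rose from 3.08 ± 0.830 to 10.9 ± 1.247 CPM (1.56) and from 0.390 ± 0.136 to 7.49 ± 0.976 CPM (2.61). FOS passed the filter on low values through the high-glucose libraries, since only 1 low-glucose library reached 0.5 CPM. The remaining gene called lower was PHLDA1 (-0.76), also named after its value was seen.

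**Figure D4:**
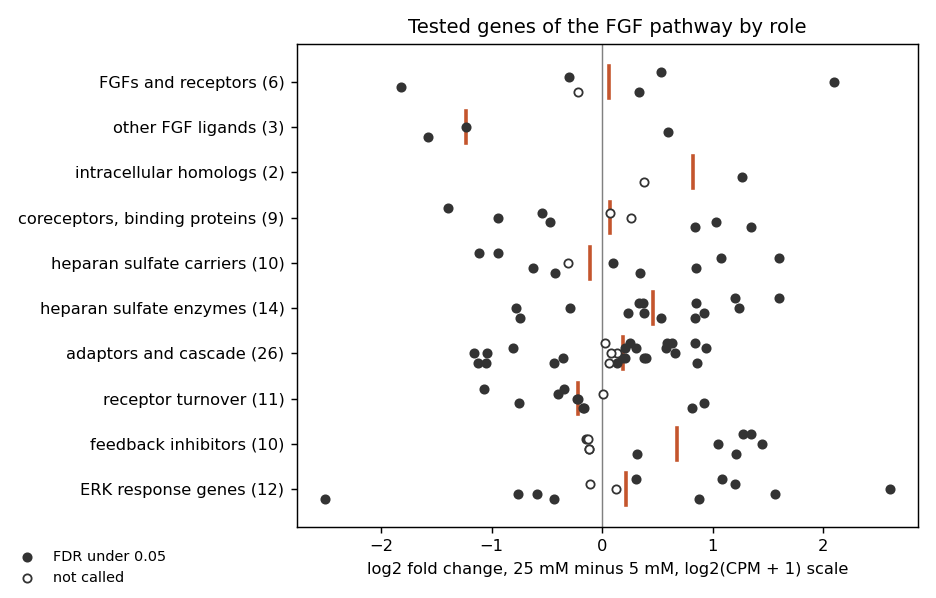
High minus low glucose difference on the log2(CPM + 1) scale (horizontal axis) for each tested gene of the FGF system by role, with the number tested after each name, filled points for an FDR under 0.05 and open points for genes not called. Orange lines are list medians, from -1.23 for other ligands to 0.82 for intracellular homologs, and each larger list holds points on both sides of 0.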

How the data were processed

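Total RNA of Hs578T cells was sequenced (8 libraries, 4 per glucose level, grouped by the treatment label). The deposited file holds normalized signal, 1 column for each library. Build hg38 and edgeR come from the submitters' processing notes, and the study's methods describe CPM with TMM factors, so the deposited signal was taken as such. The columns sum to 1017015 to 1229021, which is not plain CPM. The study's methods describe a stranded kit and alignment to hg19 with TopHat for RNA-Seq that lists other cultured lines, whereas the labels name hg38 here, so these steps were not assumed. Aligner, counter and strand use of these libraries are not stated.

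The value of 1 count was taken as the most frequent positive value of a column. Values under 50 counts were multiples of 0.01 count, and 71.2% to 73.8% were whole (within 0.005 count), so the counts behind them were estimates and no count model was used. Depth limits cover counting error only. A gene was tested if 2 or more libraries reached 0.5 CPM (15570 genes), and log2(CPM + 1) was fitted with limma 3.58.1 under R 4.3.3, using trended variance, without covariates, and with Benjamini-Hochberg adjustment over all genes kept. A gene was called at an FDR under 0.05. The design had foreseen plain CPM, and the same test was used. The fit was tested on simulated data.

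Members and lists were chosen with earlier results of these data known. Named from each list were up to 4 called genes with the smallest p, besides the members, NUDT6, FGF7 copies and the 3 genes (at least 5 CPM) nearest to FGF2 and FGFR1, of which the nearest to FGF2 is not reported here. ETV1, ETV4, ETV5, EGR1, FOS, PHLDA1, SPRY2 and FGF11 were named outside this rule, after their values were seen. Positions and upstream sequence are from RefSeq GRCh38.p14, matched by symbol. Lengths are from GENCODE, and the choice of the canonical transcript was made after the data were seen. Alternatives covered the pseudocount, filter, scaling, variance prior, replicate block and each library left out. Python 3.11.15 with matplotlib 3.10.9 drew the plots.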

Additional observations from a re-analysis of the deposited data

Results flagged for a closer look

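The genes with printed values, other than the cell type markers and PHLDA1, were examined for single outlying libraries. Of 109 groups of 4 libraries, 5 had 1 library farther from the other 3 than Dixon's 95% critical value, and chance alone gives about 5%. FGF7P3 was at 0.412 CPM in replicate 1 of high glucose against 1.08 to 1.20 CPM in the other 3. FGF7P5 was at 0.995 CPM in replicate 3 of low glucose against 0.317 to 0.393 CPM. FGF11 was at 0.166 CPM in replicate 4 of low glucose against 0.217 to 0.225 CPM. DAP was at 428 CPM in replicate 1 of low glucose against 402 to 405 CPM, and FOS at 6.03 CPM in replicate 4 of high glucose against 7.83 to 8.12 CPM. Among the 6 FGF and receptor genes of the main list that were above 0, no library was beyond this value. FGFR2, at 0 in every library, could not be examined.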

How the results depend on the processing

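Of the 6 tested members, FGF1, FGF2, FGF5 and FGFR4 kept their direction and their side of the FDR threshold under all 18 alternatives. FGFR1 was no longer called after rescaling to the same total (-0.052, adjusted p = 0.23), which leaves 1 member called lower in place of 2, and FGFR3 was no longer called after quantile normalization (0.34, adjusted p = 0.074). No member reversed. Leaving out single libraries moved FGFR3 between 0.40 and 0.61, FGFR1 between -0.32 and -0.27 and FGFR4 between -0.34 and -0.07, with no change of a call. Of the 97 pathway genes, 75 kept their call under every alternative and 9 changed sign under a scaling. Replicate numbers showed no clear pairing of the samples, with correlations of same-numbered deviations of -0.03, 0.11, 0.01 and 0.08. Replicates 1 and 3 correlated better with another number and replicates 2 and 4 with their own, so a pairing is not settled. With the replicate block 11494 genes were called against 11350, with the same number of members (5) and 87 pathway genes against 83. Depth limits FGFR2, FGFR3, FGFR4 and the scarce ligands, which rest on 0 to 40 counts per library.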
